A study of Arabidopsis thaliana with 10 samples.

Results

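The ΔC27 line of Arabidopsis thaliana was compared with its 2 control lines. ΔC27 constitutively expresses TaSIN∆C, a form of TaSIN that lacks its transmembrane motif, and the 2 ΔC27 arrays were chosen by their titles, out of 10 arrays in the series. They were set against 4 control arrays, 2 of VC, a transgenic line that carries an empty vector, and 2 of Col-0, the untransformed wild type. All lines were seedlings of 12 days, grown without stress. Other arrays in the fit came from ΔC26, a second line that expresses TaSIN∆C, and from FL3, which expresses full-length TaSIN, with 2 arrays each. ΔC27 is a single transgenic line, so an effect of the line's own insertion and an effect of the expressed protein cannot be told apart. The promoter that drives the transgene is not given in the sources used here, and the transgene's own level was not analysed here. RNA came from seedlings, so fewer cells of a type and less RNA per cell cannot be told apart. The submitters describe the 2 replicates of each line as independent biological ones.

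Plant mitochondria that are impaired signal to the nucleus, a route called mitochondrial retrograde signalling. In Arabidopsis its nuclear targets include genes for alternative respiratory enzymes, mitochondrial chaperones, small mitochondrial proteins and efflux carriers. Many of these targets are also induced by oxidative stress and by toxic chemicals, together with glutathione S-transferases, which conjugate glutathione to reactive compounds. Clauses on gene function here are general knowledge, and for genes known only by locus number they do not come from the files. For some named genes no function is given here.

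The 10 arrays had median intensities between 41.7 and 44.2, and 34.8% of all values were below 16. The 2 ΔC27 arrays were the least alike of the 2 arrays of any line. Their log2 values correlated at 0.9707 with each other. With 1 array of FL3, replicate 1 correlated at 0.9709 and replicate 2 at 0.9825. In ΔC26 too, replicate 1 correlated more with that FL3 array (0.9887) than with replicate 2 of its own line (0.9856). Across probe sets, replicate 1 minus replicate 2 had an SD of 0.415 (log2) in ΔC27, against 0.293 in ΔC26, 0.206 in FL3, 0.236 in VC and 0.235 in Col-0. The fit took 1 spread for all lines, so adjusted p-values for ΔC27 rest on a spread smaller than its own. Calls were also made without replicate 1 and without replicate 2 of ΔC27. Each of these fits leaves 1 ΔC27 array, so its spread comes from the other lines alone. A pass there shows where that array lay and does not correct for the wider spread of ΔC27.

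Of 22746 probe sets, 3797 (16.7%) passed the test between ΔC27 and the controls, with 1866 (8.20%) higher and 1931 (8.49%) lower. The test was limma's moderated test on log2(intensity + 16), with Benjamini-Hochberg adjustment over all 22746 probe sets and a threshold of 0.05, with the controls taken as the average of the VC and Col-0 means. VC against Col-0 gave 6 calls (0.0264%) in the same fit. When the variance of each line was weighted separately, 3214 calls were left. A change of at least 2-fold was seen in 327 of the higher probe sets (1.44%) and 442 of the lower ones (1.94%). A log2 change of 2 or more was seen in 41 higher and 49 lower ones, of which 23 and 20 were listed with 1 gene. The largest fall, a log2 change of -3.93, was in a probe set with no single gene listed and is not named. Without replicate 1, 1091 of the 1866 higher and 1023 of the 1931 lower calls passed in the same direction, and without replicate 2 these were 1165 and 1230. Without replicate 1 of Col-0, 2366 probe sets passed. Of the calls, 797 higher and 786 lower ones passed both without replicate 1 and without replicate 2.

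Rises came more often from dim probe sets than falls did. The called rises had a median log2 change of 0.68, with a median intensity of 149.9 in ΔC27 and 75.7 in controls, and the control mean was below 16 for 352 of them. The called falls had a median of -0.71, with a median intensity of 119.6 in ΔC27 and 230.6 in controls, and 47 had a control mean below 16. Among the 5687 probe sets brightest in controls, 612 rose and 1203 fell, and their median change was -0.15. Among the 5687 dimmest, 163 rose and 13 fell. A fall from a level near 16 cannot be large on this scale.

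**Figure D1:**
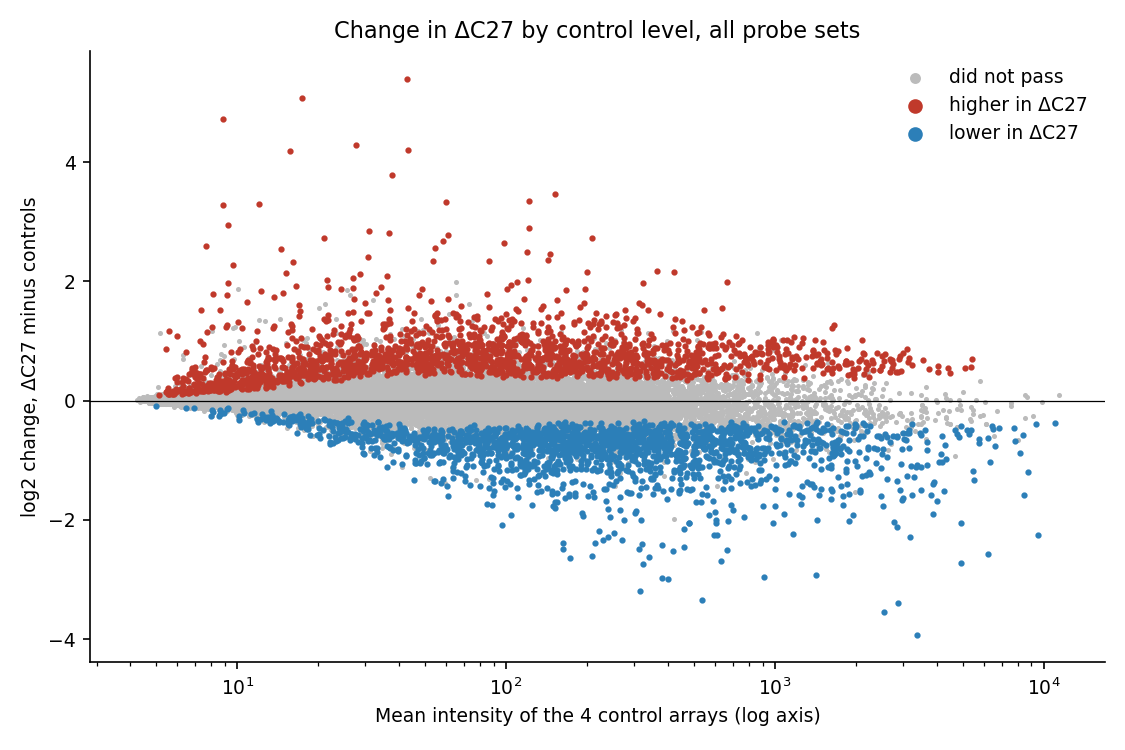
The log2 change in ΔC27 against controls (vertical axis) is plotted against the mean intensity of the 4 control arrays (horizontal, log axis), one point per probe set. The 1866 rises are red, the 1931 falls blue and the others grey; the largest rises come from low control levels and falls are more frequent at high ones.

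The largest rise was in AT2G21640, a gene for a mitochondrial protein induced by oxidative stress. Its intensity was 2594 and 2262 in ΔC27, against 29.2 and 48.7 in VC and 35.7 and 57.3 in Col-0. Both ΔC27 arrays lay far above all 4 control arrays, and the log2 change was 5.40 ± 0.18 (SE, adjusted p = 5.74e-07, limma). AT2G04050, a MATE-family efflux carrier, read 1133 and 1083 in ΔC27, against 14.9 and 17.8 in VC and 16.4 and 20.7 in Col-0. It was low in every control array and the groups did not overlap, with a log2 change of 5.07 ± 0.14 (SE, adjusted p = 3.37e-07, limma). AT5G51440, a small heat shock protein of mitochondria, read 185 and 279 in ΔC27, against 15.5 and 24.3 in VC and 20.4 and 23.9 in Col-0, with a log2 change of 2.73 ± 0.26 (SE, adjusted p = 0.000324, limma). AT2G20720, a pentatricopeptide repeat protein, a family mostly acting on organelle RNA, read 517 and 603 in ΔC27, against 14.7 and 14.1 in VC and 21.3 and 12.8 in Col-0, and its change was 4.19.

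The list of mitochondrial retrograde genes had 8 measured members. It was chosen with earlier results of these data known, so its counts describe and are no support. All 8 rose, beside 7.79% of matched probe sets higher in the whole table, and their median log2 change was 2.53, beside a median of 0.00 over all probe sets. All 8 also lay above the control mean in each ΔC27 array taken alone. Summed intensities of the 8 were 5172 and 4789 in ΔC27, against 288 and 335 in VC and 289 and 418 in Col-0. Both ΔC27 sums were far above every control sum. NDB2, an alternative NAD(P)H dehydrogenase of the mitochondrial inner membrane, read 312 and 237 in ΔC27, against 103 and 119 in VC and 84.4 and 113 in Col-0, and its change was 1.26. Its relative NDB4 read 57.8 and 35.2 in ΔC27, against 11.2 and 10.2 in VC and 9.94 and 10.5 in Col-0, and its change was 1.22. AT5G09570, a twin-cysteine mitochondrial protein, read 318 and 322 in ΔC27, against 25.3 and 44.1 in VC and 69.3 and 74.6 in Col-0, with a change of 2.34. The lowest change in the list, that of NDB4, still set both ΔC27 arrays above all 4 control arrays.

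Some detoxification genes rose. GSTU22, a tau-class glutathione S-transferase, read 1369 and 1374 in ΔC27, against 137 and 98.4 in VC and 97.1 and 154 in Col-0, with a log2 change of 3.36 ± 0.25 (SE, adjusted p = 9.45e-05, limma). GSTU25 read 495 and 475 in ΔC27, against 64.7 and 51.8 in VC and 32.6 and 93.3 in Col-0, with a change of 2.77. Both genes were several-fold above all controls in both ΔC27 arrays. Of 11 tau-class members 3 rose and 1 fell, and the list's median was 0.10. The third riser, GSTU23, changed by 0.32 and GSTU27, which fell, by -0.56. Neither of these passed without replicate 1 (adjusted p = 0.12 and 0.156, limma) or without replicate 2 of ΔC27 (adjusted p = 0.0916 and 0.0502, limma). Of 51 UDP-glycosyltransferases, which attach sugars to small molecules, 8 rose and 4 fell, beside 7.79% higher and 7.35% lower among matched probe sets, so the falls were near the background share. UGT73B4 read 203 and 192 in ΔC27, against 85.3 and 65.3 in VC and 39.3 and 74.1 in Col-0, with a change of 1.42, and it did not pass without replicate 1 of ΔC27 (adjusted p = 0.061, limma). UGT72E1 fell, with a change of -1.04. Of 28 cytochrome P450 genes with a P450 symbol, none rose and 3 fell, led by CYP71B23 at -1.26, and these falls were also near the background share. AT3G44970, of the P450 family but without such a symbol, rose by 1.83 (adjusted p = 4.06e-05, limma).

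The remaining large rises were in genes of other kinds. AT2G18190, a AAA-type ATPase, read 567 and 725 in ΔC27, against 9.07 and 10.1 in VC and 9.16 and 7.25 in Col-0. Its neighbour by locus number, AT2G18180, a SEC14-like lipid-transfer protein, read 193 and 164 in ΔC27, against 8.29 and 7.48 in VC and 11.2 and 9.90 in Col-0. Their log2 changes were 4.72 and 2.94, from control levels near the lowest values on the arrays. AT1G17960, a threonyl-tRNA synthetase, read 225 and 298 in ΔC27, against 11.7 and 12.8 in VC and 12.3 and 11.4 in Col-0, with a change of 3.29. AT5G56350, a pyruvate kinase of glycolysis, read 1595 and 1358 in ΔC27, against 199 and 227 in VC and 185 and 227 in Col-0, with a change of 2.73. In both of these genes the ΔC27 arrays were above all controls. AT4G26470, a calcium-binding EF-hand protein, read 406 and 247 in ΔC27, against 30.3 and 23.0 in VC and 26.1 and 44.7 in Col-0, with a change of 2.85. The 2 ΔC27 arrays lay further apart in AT2G32020, a GNAT-family acetyltransferase, which read 1375 and 501 in ΔC27, against 28.1 and 22.0 in VC and 26.99 and 33.6 in Col-0; its change was 4.29 ± 0.31 (SE). In all 12 named rises both ΔC27 arrays lay above every control array, as they did in 18.4% of all probe sets; the rule that named them required it. Both lay below every control array in 18.7%.

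The falls began with defence and cell wall proteins. PDF1.2b, a plant defensin of the jasmonate and ethylene pathway, read 23.8 and 49.2 in ΔC27, against 273 and 662 in VC and 462 and 751 in Col-0. Both ΔC27 arrays were below all controls, and the log2 change was -3.34 ± 0.41 (SE, adjusted p = 0.00103, limma). Of 14 genes listed by defensin or pathogenesis-related symbol, 4 fell and 2 rose, beside 7.35% lower among matched probe sets. PDF1.4 changed by -1.76, PDF1.2 by -1.59 and LCR66 by -0.88, while PDF2.1 rose by 1.57. PDF1.2 and PDF1.2b are close copies, and probe specificity between them was not analysed here. The other riser in that list, PDF1A, encodes a peptide deformylase and entered by its symbol alone. AT1G66100, a thionin, another antimicrobial peptide, read 24.3 and 16.7 in ΔC27, against 181 and 187 in VC and 182 and 288 in Col-0, with a change of -2.61. ECS1, a cell wall protein, read 565 and 893 in ΔC27, against 3195 and 4514 in VC and 6185 and 5834 in Col-0, with a change of -2.72 ± 0.24 (SE, adjusted p = 0.000233, limma).

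Other large falls came from genes with metabolic, redox or no named role. AT1G19540, an NmrA-like reductase, read 46.1 and 38.3 in ΔC27, against 315 and 364 in VC and 312 and 254 in Col-0, with a log2 change of -2.48. AT1G72060, a peptidase inhibitor, read 66.0 and 68.5 in ΔC27, against 302 and 392.4 in VC and 619.7 and 519 in Col-0, with a change of -2.46. AT3G60420, of the phosphoglycerate mutase family, read 72.7 and 45.5 in ΔC27, against 379.6 and 441 in VC and 322 and 379 in Col-0, with a change of -2.42. In these 3 both ΔC27 arrays were well below every control array. The glutaredoxin-family gene AT3G62950 read 6.44 and 28.1 in ΔC27, against 171 and 109.8 in VC and 199.9 and 173 in Col-0, with a change of -2.48. AT2G25510 read 634 and 1653 in ΔC27, against 5267 and 5793 in VC and 6567 and 7156 in Col-0, with a change of -2.57. In these the 2 ΔC27 arrays lay further apart, but both stayed below every control array. AT3G20340 read 26.9 and 61.1 in ΔC27, against 336 and 267 in VC and 354 and 405 in Col-0, with a change of -2.62. AT1G54740 read 38.6 and 79.9 in ΔC27, against 322 and 263 in VC and 496 and 597 in Col-0, with a change of -2.52. Neither has a role given here. AT1G62510, a lipid-transfer-like protein, read 29.3 and 69.2 in ΔC27, against 291 and 234 in VC and 364 and 393 in Col-0, with a change of -2.41. AT1G10340, an ankyrin-repeat protein, read 38.6 and 19.0 in ΔC27, against 194 and 195 in VC and 198 and 272 in Col-0, with a change of -2.39. All 24 named rises and falls passed the test under every alternative setting tried.

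**Figure D2:**
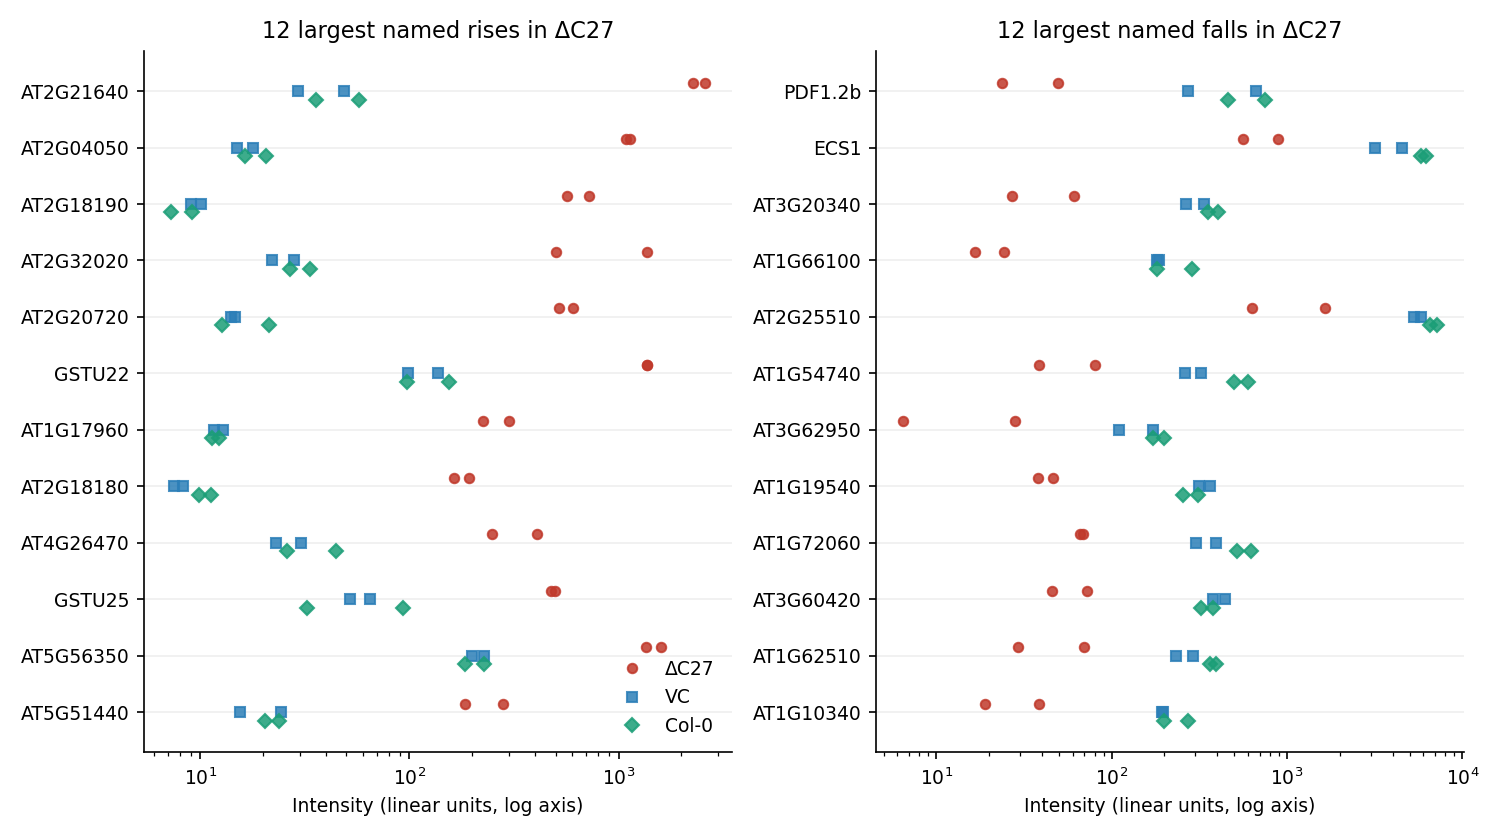
Intensity in each array of the 12 largest rises (left) and the 12 largest falls (right) among probe sets with 1 gene listed, on a log axis, with 2 points each for ΔC27, VC and Col-0. In every one of the 24 genes the 2 ΔC27 points lie on 1 side of all 4 control points, as the naming rule required, from AT2G21640 (2594 and 2262 in ΔC27) to PDF1.2b (23.8 and 49.2 in ΔC27).

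Several auxin response genes fell in ΔC27. Of 13 measured, 6 fell and none rose, beside 7.35% lower among matched probe sets, and the 7 others lay between -0.11 and 0.02. Without replicate 1 of ΔC27 3 of the 13 were called lower, and without replicate 2 5 were. IAA29, a repressor of auxin-responsive transcription, read 27.04 and 101.1 in ΔC27, against 301 and 247 in VC and 339 and 207 in Col-0, with a log2 change of -2.01 ± 0.34 (SE, adjusted p = 0.00401, limma). GH3.3, which conjugates auxin to amino acids, read 118 and 163 in ΔC27, against 512 and 621 in VC and 365 and 274 in Col-0, with a change of -1.50. WES1, a second GH3-type enzyme, read 407 and 398 in ΔC27, against 678 and 937 in VC and 806 and 756 in Col-0, with a change of -0.94. Tested directly, GH3.3 was lower in ΔC27 than in ΔC26 and FL3, by log2 differences of -0.91 and -1.36 (adjusted p = 0.0375 and 0.0159, limma). WES1 was higher in ΔC27 than in ΔC26, at 407 and 398 against 190.1 and 229, a difference of 0.90 (adjusted p = 0.0247, limma). HAT2, an auxin-induced homeobox factor, read 123 and 299 in ΔC27, against 458 and 501 in VC and 523 and 297 in Col-0, and its higher ΔC27 array overlapped the lowest control array. Its change of -1.11 was past the threshold (adjusted p = 0.0439, limma) but not without replicate 1. Of 29 expansins and xyloglucan endotransglucosylases, proteins that loosen the cell wall, 4 rose and 5 fell. Among matched probe sets 7.79% were higher and 7.35% lower. EXPA8 changed by -1.60, XTH16 by -1.29 and EXPA15 by 0.94. Without replicate 1 of ΔC27 3 were called higher and 7 lower, and without replicate 2 8 higher and 3 lower. EXPA15 did not pass without replicate 2 (adjusted p = 0.0547, limma). Of 10 cellulose and other wall polysaccharide synthases none passed, at a median of -0.02.

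Some photosynthesis genes fell. Of 8 nuclear-encoded genes 3 fell and none rose, beside 7.35% lower among matched probe sets, with a median of -0.34, and 2 were called lower without replicate 1 and 2 without replicate 2. LHCB4.2, a minor antenna protein of photosystem II, read 402 and 604 in ΔC27, against 1323 and 1336 in VC and 1774 and 2012 in Col-0, with a log2 change of -1.65 ± 0.20 (SE, adjusted p = 0.00104, limma). PSAN, a subunit of photosystem I, read 1764 and 1861 in ΔC27, against 2627 and 3029 in VC and 2613 and 2696 in Col-0, with a change of -0.59. Of 69 plastid-genome transcripts 22 fell and none rose, with a median of -0.38. Of all matched probe sets 7.35% were lower, and of the 5687 brightest probe sets, matched or not, 1203 were. Their summed intensity was 59607 and 70538 in ΔC27, against 73017 and 82591 in VC and 95741 and 107693 in Col-0. Of the 69, 3 were called lower without replicate 1 of ΔC27 and 14 without replicate 2. The list's summed intensity was 81343 and 72202 in ΔC26 and 65612 and 75997 in FL3. None of the 69 passed in the direct tests of ΔC27 against ΔC26 or FL3. The genes ndhJ and psbJ, plastid genes for a subunit of the NDH complex and of photosystem II, changed by -1.19 and -1.08. VC minus Col-0 was -0.80 in ndhJ and -0.44 in psbJ, and neither difference passed the test. Plastid transcripts mostly lack the poly(A) tail of nuclear messages and were measured here only as far as the labelling captured them.

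Among aldehyde dehydrogenases, which oxidise reactive aldehydes, 5 of 8 fell and none rose, beside 7.35% lower among matched probe sets, at a median of -0.56, and 4 were called lower without replicate 1 and 4 without replicate 2. ALDH7B4 read 944 and 925 in ΔC27, against 1613 and 1528 in VC and 1812 and 2095 in Col-0, with a log2 change of -0.89, and ALDH2C4 changed by -0.79. Of 11 autophagy genes 4 fell, all in the ATG8 family, whose proteins coat the growing autophagosome. Without replicate 1 of ΔC27 1 of the 11 was called lower, and without replicate 2 6 were. APG8H read 766 and 787 in ΔC27, against 1054 and 1197 in VC and 1504 and 1413 in Col-0, with a change of -0.71, and ATG8F, ATG8H and ATG8C changed by -0.71, -0.69 and -0.53. ATG8C read 221 and 233 in ΔC27, against 249 and 300 in VC and 389 and 432 in Col-0. VC minus Col-0 was -0.37, -0.40, -0.58 and -0.56 in APG8H, ATG8F, ATG8H and ATG8C, and none of these differences passed the test. In ATG8H and ATG8C this gap was close in size to the fall. The other ATG8-type members, among them ATG8D and ATG8G, were at -0.10 and 0.03 and did not pass. In cold and dehydration genes 4 rose and 2 fell of 14, beside 7.79% higher and 7.35% lower among matched probe sets. COR27 read 327 and 288 in ΔC27, against 849 and 831 in VC and 922 and 781 in Col-0, with a change of -1.41, and COR15A, a chloroplast protein of cold acclimation, changed by -1.30. LTI30, a dehydrin, rose by 1.21, with 884 and 409.7 in ΔC27, against 239 and 225 in VC and 192 and 381 in Col-0. Without replicate 1 of ΔC27 its change was 0.67 and it did not pass (adjusted p = 0.214, limma), and 2 rather than 4 of the list were called higher.

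Some transcription factor genes passed the test, beside 7.79% higher and 7.35% lower among matched probe sets. Of 7 WRKY genes 1 fell, WRKY22 at -1.01, which did not pass without replicate 2 of ΔC27 (adjusted p = 0.0787, limma). Of 23 bZIP genes 1 rose and 4 fell, and of 7 bHLH genes 1 rose and 2 fell, with bHLH121, a regulator of iron uptake, at -1.10. None of 6 cell cycle genes or 3 heat shock genes passed, and 1 of 7 unfolded protein response genes rose, CRT1b, a calreticulin of the endoplasmic reticulum, at 0.57; it did not pass without replicate 1 or without replicate 2 of ΔC27 (adjusted p = 0.085 and 0.119, limma). Of 23 ubiquitin and proteasome genes 4 rose and 3 fell, with UBC29 at 0.95 and PUB24 at -0.78. Their balance turned with 1 array: 1 was called higher and 4 lower without replicate 1 of ΔC27, and 6 higher and 1 lower without replicate 2, where PUB24 did not pass (adjusted p = 0.203, limma). The 5 reference genes were between -0.27 and 0.29 and none passed. Of 5 root markers 1 rose, AT4G26010 at 1.47 (adjusted p = 0.0725 without replicate 2, limma), and all 5 were above 0. Their summed intensity was 244 and 379 in ΔC27, against 162 and 88.8 in VC and 90.8 and 193 in Col-0. Their part in the other results was not tested.

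**Figure D3:**
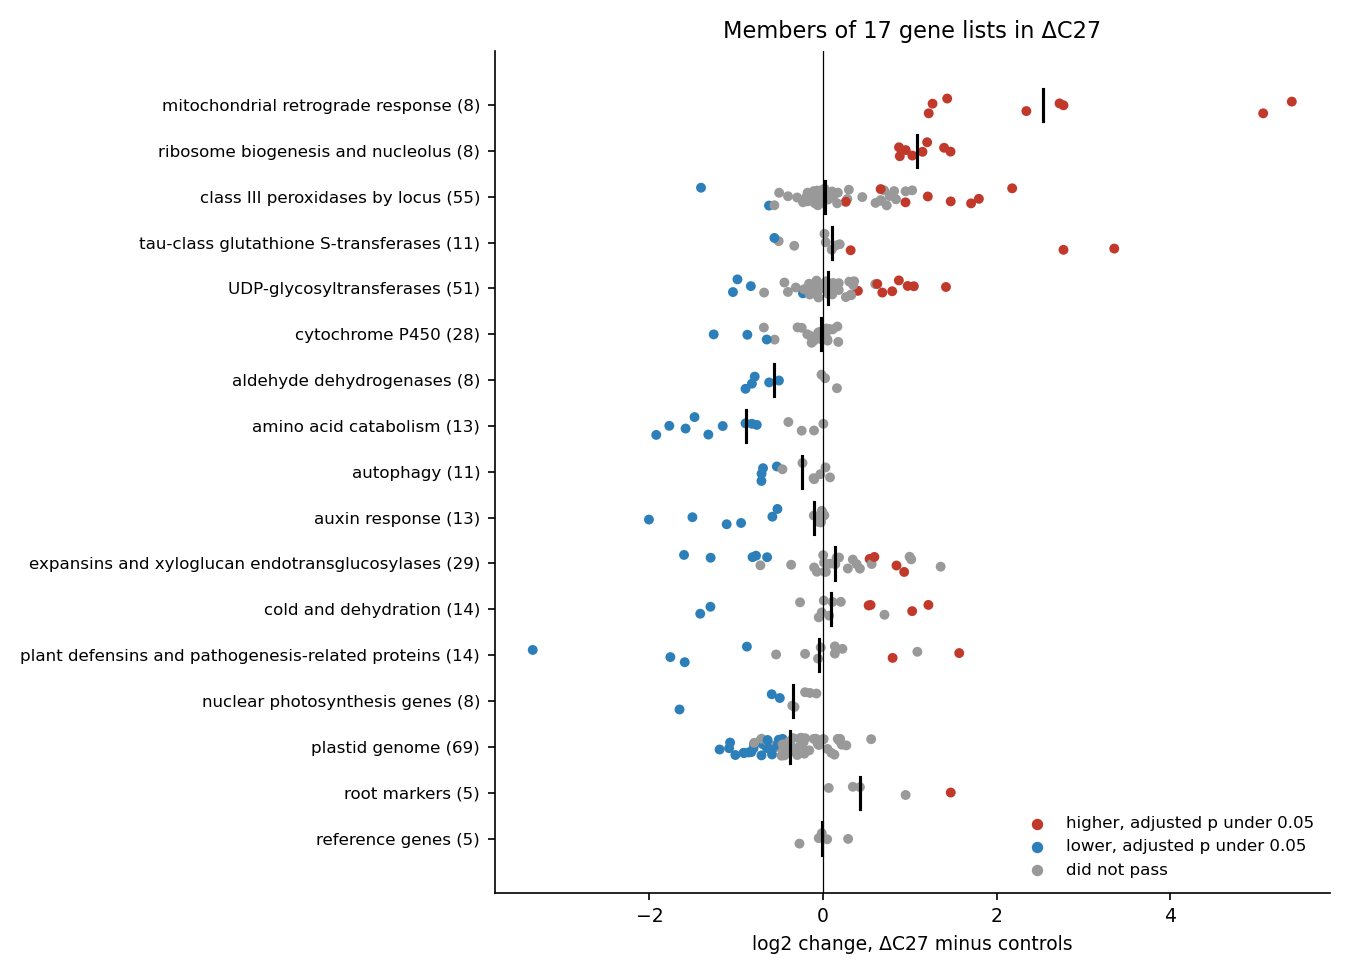
Log2 change in ΔC27 against controls for the members of 17 gene lists, with the number measured in brackets, each point a gene and the black bar the list's median; all lists were chosen with earlier results of these data known. Red points passed the test as higher, blue as lower and grey did not pass; the mitochondrial retrograde list has all 8 members above 1, at a median of 2.53.

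ΔC27 was tested directly against the second TaSIN∆C line. Of 22746 probe sets 670 (2.95%) differed between ΔC27 and ΔC26, with 187 (0.822%) higher and 483 (2.12%) lower in ΔC27. With arrays left out in turn this count ran between 109, without ΔC26 replicate 2, and 1448, without ΔC27 replicate 2. The excess of lower calls changed with single arrays: 27.9% of the 670 were higher in ΔC27, but 53.7% of the 1448 without ΔC27 replicate 2 and 46.4% of 843 without ΔC26 replicate 1. AT5G37140, a P-loop ATPase-type protein, read 74.7 and 92.5 in ΔC27, against 9.89 and 11.6 in ΔC26, 9.43 and 8.44 in FL3, 8.56 and 9.99 in VC and 9.89 and 8.44 in Col-0. All arrays of the other lines were at or below 11.6, and the log2 difference from ΔC26 was 1.89 ± 0.10 (SE, adjusted p = 0.000215, limma). AT3G44970, of the P450 family, read 80.4 and 87.7 in ΔC27, against 19.5 and 16.0 in ΔC26, 11.6 and 18.8 in FL3, 13.0 and 16.4 in VC and 9.85 and 9.61 in Col-0. Its log2 difference from ΔC26 was 1.57 (adjusted p = 0.00158, limma). AT1G66100 was lower in ΔC27 than in ΔC26, at 24.3 and 16.7 against 352 and 319.6, a difference of -3.28 ± 0.24 (SE, adjusted p = 0.000593, limma). FL3 read 60.7 and 34.9 in this gene. MSRB6, a methionine sulfoxide reductase, and AT5G62360, a pectin methylesterase inhibitor, were lower in ΔC27 than in ΔC26. MSRB6 read 16.4 and 11.8 in ΔC27, against 287 and 198 in ΔC26, 29.3 and 18.5 in FL3, 48.2 and 59.3 in VC and 41.4 and 36.0 in Col-0. AT5G62360 read 64.1 and 39.9 in ΔC27, against 605 and 509 in ΔC26, 52.7 and 67.4 in FL3, 183 and 197 in VC and 148 and 67.7 in Col-0. In both, ΔC26 was above the controls, and ΔC27 and FL3 were below them. ΔC27 did not differ from FL3 past the threshold in AT1G66100, MSRB6 or AT5G62360 (adjusted p = 0.176, 0.456 and 0.858, limma).

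Against the full-length line FL3, 197 probe sets (0.866%) differed, with 84 (0.369%) higher and 113 (0.497%) lower in ΔC27. With arrays left out in turn this count ran between 24, without FL3 replicate 1, and 1079, without ΔC27 replicate 2. The balance turned with single arrays: 42.6% of the 197 were higher in ΔC27, but 65.6% of the 1079, 66.7% of the 24 and 51.8% of 226 without ΔC27 replicate 1. AT2G41445 read 125 and 128 in ΔC27, against 60.2 and 39.3 in ΔC26, 7.44 and 6.17 in FL3, 7.14 and 7.36 in VC and 8.37 and 7.64 in Col-0. FL3 stayed at the control level and ΔC26 lay between, and the log2 difference of ΔC27 from FL3 was 2.64 ± 0.15 (SE, adjusted p = 9.05e-05, limma). AT2G32160, a methyltransferase-type protein, read 7.32 and 13.6 in ΔC27, against 87.3 and 88.6 in ΔC26, 102 and 79.3 in FL3, 87.6 and 73.3 in VC and 118 and 107 in Col-0. ΔC27 alone was low, at a difference of -2.02 ± 0.18 from FL3 (SE, adjusted p = 0.00203, limma). ECS1 was also lower in ΔC27 than in FL3, at 565 and 893 against 4935 and 2941, a difference of -2.40, which did not pass without FL3 replicate 1 (adjusted p = 0.0655, limma). Most of the mitochondrial retrograde genes did not differ beyond the test's threshold between ΔC27 and the other TaSIN lines. AT2G21640 read 2594 and 2262 in ΔC27, against 1877 and 1814 in ΔC26 and 2075 and 2043 in FL3. Neither difference passed the test (adjusted p = 0.36 and 0.685, limma). Of the 8 listed, AT2G04050 and NDB4 were higher in ΔC27 than in ΔC26, and NDB4 was higher than in FL3. NDB4 read 57.8 and 35.2 in ΔC27, against 13.8 and 20.4 in ΔC26 and 11.2 and 11.3 in FL3. Its log2 differences were 0.90 from ΔC26 and 1.18 from FL3 (adjusted p = 0.0205 and 0.0128, limma). AT2G04050 read 1133 and 1083 in ΔC27, against 527 and 392.1 in ΔC26 and 914 and 1019.5 in FL3.

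**Figure D4:**
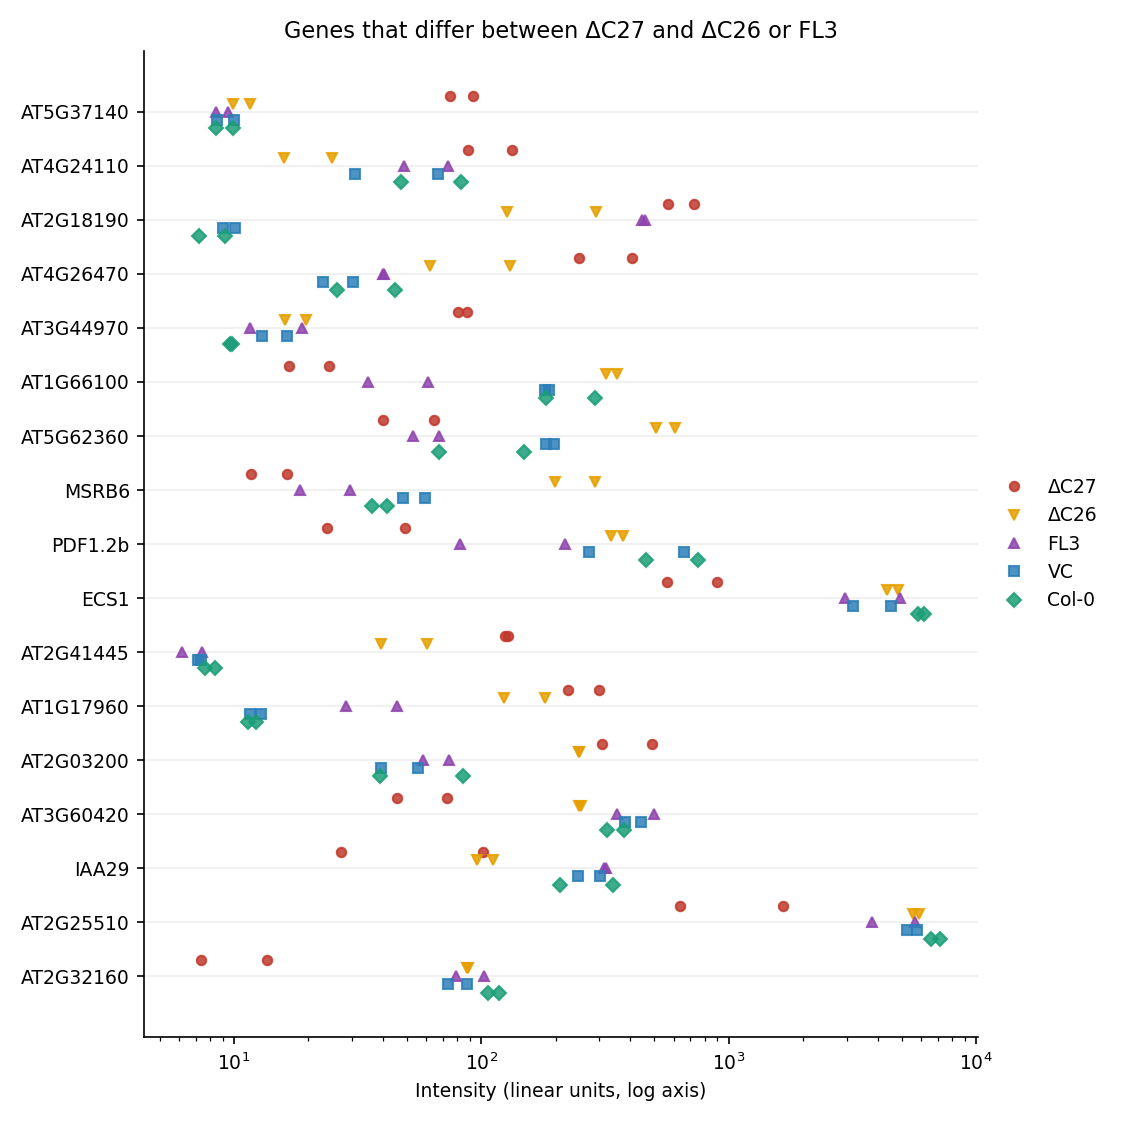
Intensity of 17 genes that differed between ΔC27 and ΔC26 or FL3, in each of the 10 arrays on a log axis, with ΔC27 (red) first and the control lines last. AT5G37140 and AT2G32160 show ΔC27 apart from all other lines, while MSRB6 and AT5G62360 show ΔC26 apart.

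The 2 ΔC27 arrays disagreed in many genes. They differed by 2-fold or more in 538 probe sets where replicate 1 was higher and in 168 where replicate 2 was higher, while such differences came to 214 in ΔC26, 74 in FL3, 97 in VC and 131 in Col-0. Of 22746 probe sets, replicate 1 lay above and replicate 2 below all 4 control arrays in 736, and the reverse held in 737. Such orders also arise among arrays that do not differ, so these counts are not read as disagreement. Among probe sets with 1 gene listed, AT4G29780 showed the widest gap, at 1816 in replicate 1 and 31.1 in replicate 2, against 92.1 and 72.7 in VC and 235 and 426 in Col-0. STZ, a zinc finger repressor of stress responses, was 1324 and 81.8 in ΔC27, against 448 and 334 in VC and 972 and 1167 in Col-0. AT4G27280, an EF-hand calcium-binding protein, was 7116 and 450.4 in ΔC27, against 1612 and 1242 in VC and 3046 and 3341 in Col-0. In these genes the controls lay between the 2 arrays of ΔC27, and AT2G27080 and AT4G27652 showed the same order. None passed the test. In all, 101 probe sets were called higher without replicate 2 and lower without replicate 1.

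**Figure D5:**
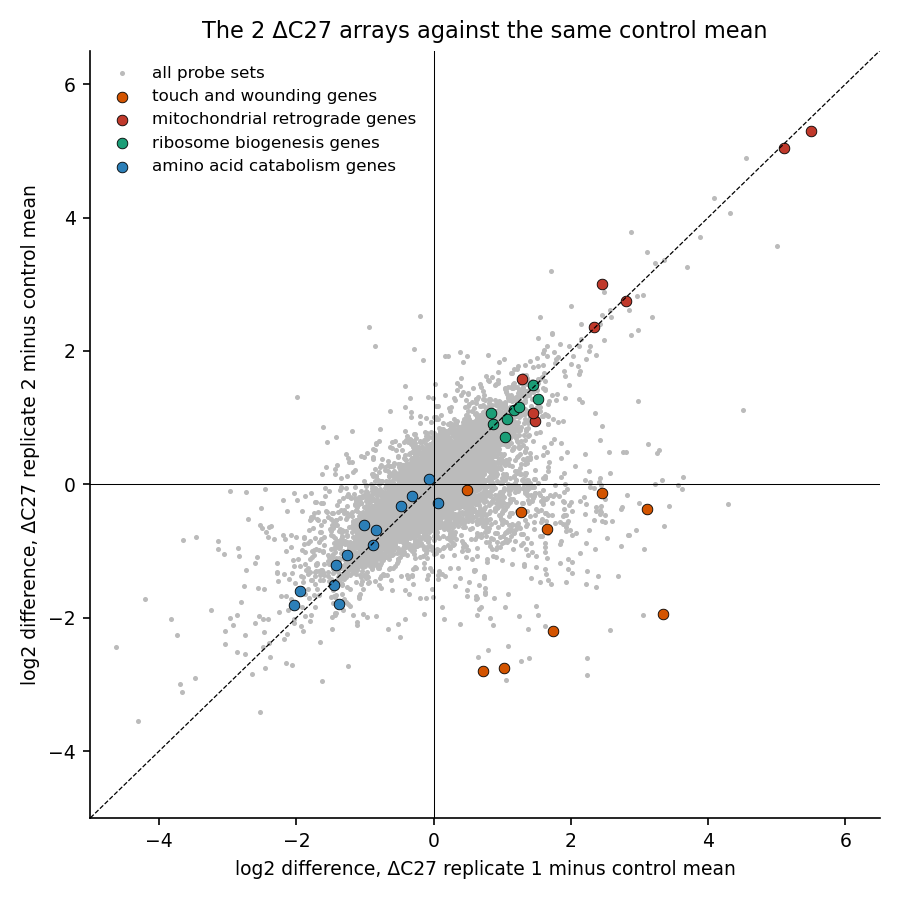
Log2 difference from the control mean in ΔC27 replicate 1 (horizontal) and replicate 2 (vertical), one point per probe set, with the dashed line of equal differences. Both axes share the control mean; mitochondrial retrograde genes (red) lie near the line in both arrays, and the other lists, chosen like it with earlier results known, include touch and wounding genes (orange), which are above 0 in replicate 1 and below 0 in replicate 2.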

How the data were processed

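RNA of seedlings from 5 lines, 2 arrays a line, was biotin-labelled and measured on Affymetrix arrays, per the labels' protocols. The deposited table holds 1 intensity for each probe set on each array, and its range is that of linear values. How the authors summarised and normalised these intensities is not given in the sources used here. The 64 control probe sets were left out, which leaves 22746 of 22810. Of these, the platform annotation listed 1 gene for 13513, several for 503 and none for 8730. Through the gene identifier 13436 were matched to 13286 loci of the TAIR10.1 gene table. A probe set with several genes or none was not named.

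Values were transformed here as log2(intensity + 16), so changes of dim probe sets are understated, and a mean per line was fitted over all 10 arrays with limma 3.58.1 (R 4.3.3), with 5 residual degrees of freedom and an intensity trend. The lines share 1 spread, and the number of arrays limits the precision. Contrasts were ΔC27 against controls (the average of the VC and Col-0 means), ΔC27 against ΔC26, ΔC27 against FL3, and VC against Col-0. Tests were two-sided with Benjamini-Hochberg adjustment and a threshold of 0.05. Comparisons of ΔC27 with controls and with other lines share the ΔC27 arrays. Named were the 12 largest rises and falls against controls, and 5 each way against ΔC26 and FL3, among probe sets past the threshold, with 1 gene and no overlap between the arrays compared; up to 4 passing members of each list; and the 5 genes with the widest gap between the ΔC27 arrays. Some genes outside this rule are named beside their list and were chosen after their values were seen. Of 48 gene lists, matched by symbol, synonym or locus, 35 had 3 or more genes measured; 6 had none. Members and lists were chosen with earlier results of these data known, so the list counts describe and are no support. The fit was tested on simulated data. Alternatives changed the scaling, pseudocount, filter, variance prior, controls, array weights, replicate block and arrays in the fit. Promoter motifs were not analysed here. Figures were drawn with matplotlib 3.10.9.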

Additional observations from a re-analysis of the deposited data

Results flagged for a closer look

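Each of the following genes differed between ΔC27 and another TaSIN line in a direct test of the difference (limma, Benjamini-Hochberg adjustment), and all are log2 differences on the log2(intensity + 16) scale. They are the largest ones by the naming rule, so their sizes are those of selected genes.

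Higher in ΔC27 than in ΔC26 were AT5G37140 by 1.89, AT4G24110 by 1.79, AT2G18190 by 1.65, AT4G26470 by 1.64 and AT3G44970 by 1.57. Lower in ΔC27 than in ΔC26 were AT1G66100 (-3.28), AT5G62360 (-3.09), MSRB6 (-3.09), PDF1.2b (-2.86) and ECS1 (-2.66). Among these, AT4G24110 did not pass against the controls. Of 20 alternative settings, AT4G26470 lost this call in 8, AT4G24110 and PDF1.2b in 3 each and AT2G18190 in 1.

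Higher in ΔC27 than in FL3 were AT2G41445 by 2.64, AT4G26470 by 2.57, AT1G17960 by 2.40, AT2G03200 by 2.30 and AT5G37140 by 1.99. Lower in ΔC27 than in FL3 were AT3G60420 (-2.56), ECS1 (-2.40), IAA29 (-2.23), AT2G25510 (-2.16) and AT2G32160 (-2.02). Of 20 settings, IAA29 lost this call in 11, AT2G25510 in 10, AT4G26470 and AT2G03200 in 2 each (without either FL3 array) and ECS1 in 1.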

How the results depend on the processing

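The number of arrays, 2 per line, limits all results, and the 2 ΔC27 arrays differ more than those of other lines. Against controls, 3797 calls became 2522 with VC alone as control (1262 lower), and 769 with a 2-fold minimum (327 higher, 442 lower). With arrays left out in turn it was 2366 (without Col-0 replicate 1) to 4134, with 1155 to 2049 higher and 1211 to 2085 lower. Against ΔC26, 670 calls became 171 with array weights by line, 446 with the replicate block and 262 with a 2-fold minimum, and 109 to 1448 with arrays left out. Against FL3, 197 calls became 122 with the replicate block and 118 with a 2-fold minimum, and 24 to 1079 with arrays left out. VC against Col-0, 6 calls, became 0 after the dimmest probe sets were left out, 0 with no intensity trend, 13 with a robust prior, 14 with array weights, 2 with the replicate block, 3 with a 2-fold minimum, 3 with no pseudocount (chosen after seeing the data) and 2 to 48 with arrays left out. The cause was not tested. VC and Col-0 differed in 1594 probe sets at an unadjusted p under 0.05. Same-numbered arrays of different lines correlated between -0.20 and 0.0859 in their deviations. Whether they shared a processing batch was not tested. Against controls the replicate block left 3357 calls.

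Quantile normalization gave 3638 calls against controls, 51.8% of them higher, and median centring 3725, 45.8% higher, against 49.1%. The 12 rises and 12 falls named against controls passed in all 24 settings. Of the 10 named differences from ΔC26, 6 passed in all 20 settings, and of the 10 from FL3, 5 did. The others kept their direction and lost the call in 1 to 11 settings. Promoter motifs, planned, were not run.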

Other observations

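These gene groups were put together after values of some of their members had been seen, so their counts describe and support nothing. Of 8 ribosome biogenesis genes all 8 rose in ΔC27, between 0.88 and 1.47 on the log2 scale, beside 7.79% higher among matched probe sets. In the direct tests 5 of them were higher than in ΔC26, beside 0.822% of all probe sets, and none was higher than in FL3. Their summed intensity was 4622 and 4236 in ΔC27, 2574 and 2856 in ΔC26, and 3885 and 3658 in FL3. In controls it was 1984 and 2092 in VC and 1906 and 2215 in Col-0. AT3G12860, of the NOP56 family of nucleolar proteins, read 98.4 and 101.4 in ΔC27, against 28.6 and 25.4 in VC and 23.8 and 25.8 in Col-0. AT3G03920, of the GAR1 family, read 539 and 507 in ΔC27, against 190.5 and 230.4 in VC and 214 and 243 in Col-0. In both, every ΔC27 array was above every control array. The 6 members whose values had not been seen all rose.

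Of 13 amino acid catabolism genes 9 fell and none rose, beside 7.35% lower among matched probe sets, at a median of -0.89. MCCA, a subunit of the carboxylase that acts in leucine breakdown, read 453 and 528 in ΔC27, against 2411 and 1317 in VC and 1779 and 2289 in Col-0, a log2 change of -1.92. IVD, the isovaleryl-CoA dehydrogenase of the same route, changed by -1.48, and AT4G33150, the bifunctional enzyme of lysine breakdown, by -1.77. Of the 8 members not seen before, 4 fell, at a median of -0.58.

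Of 55 class III peroxidases, by locus, 8 rose and 2 fell, beside 7.79% higher and 7.35% lower among matched probe sets. Of the 50 members not seen before, 4 rose and 2 fell, at a median of -0.01, which is near the background share. AT3G21770 read 1812 and 1568 in ΔC27, against 371 and 284 in VC and 333 and 475 in Col-0. AT3G21770, AT3G01190 and AT5G17820 were also higher in ΔC27 than in FL3. None of the 55 passed in the direct test against ΔC26. These 3 genes were also higher in ΔC26 than in controls (adjusted p = 0.00475, 0.0211 and 0.0395, limma). AT3G01190 read 311 and 322 in ΔC27 and 254 and 339 in ΔC26. AT5G17820 read 344 and 455 in ΔC27 and 282 and 361 in ΔC26. AT4G26010, which rose, is both in this list and among the 5 root markers, whose log2 changes were all above 0 at a median of 0.43; the part of root markers in the peroxidase values was not tested. Of 9 genes of the rapid touch and wounding response none passed. Their summed intensity was 11528 in replicate 1 and 699 in replicate 2 of ΔC27. In controls it was 2586 and 2290 in VC and 4599 and 5377 in Col-0, so the 2 control lines also lay apart. None of the 4 members not seen before passed, at a median of 0.46.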
